A study of Mus musculus with 26 samples.

Results

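The genes described here encode 10 proteins that write, remove or read methyl marks on RNA. They are the m5C writers Nsun2, Nsun5 and Trdmt1, the m6A writers Mettl3, Mettl14 and Wtap, the m6A erasers Fto and Alkbh5, and the m6A readers Ythdc1 and Ythdf2. They were taken as a named list, drawn up with earlier results of these data known. A peak of RNA 5-hydroxymethylcytosine (5hmC) was assigned to a gene when its summit, the midpoint of the listed interval, fell inside the span of the gene on the mouse build mm9 (GENCODE M1 annotation). Of 56538 peaks in 13 libraries, 45 met this rule, and merging of overlapping intervals reduced them to 18 of 23367 regions. A peak was present in 7 of the 10 genes, and none of the 13 lists held a summit in Nsun5, Trdmt1 or Mettl3.

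Methyl groups reach cytosines in RNA through enzymes of the NSUN family and through TRDMT1, which is best known for methylating transfer RNA, and Tet dioxygenases can oxidise the resulting 5-methylcytosine (m5C) to 5hmC. Methylation of adenosine (m6A) is laid down by the METTL3 and METTL14 heterodimer together with its adaptor WTAP, is removed by FTO and ALKBH5, and is bound by proteins with a YTH domain, of which YTHDC1 acts in the nucleus and YTHDF2 directs the decay of bound mRNAs. In embryonic stem cells (ESCs) the m6A pathway is known for its part in the exit from pluripotency.

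In hMeRIP-seq, fragmented total RNA is immunoprecipitated with an antibody against 5hmC and sequenced beside its input. WT ESC were wild-type mouse embryonic stem cells grown in serum with leukaemia inhibitory factor (LIF), TKO ESC were stem cells in the same medium that lacked Tet1, Tet2 and Tet3, and WT EB were embryoid bodies that wild-type stem cells had formed over 4 days after LIF was withdrawn, with 3 libraries in each group. Tet2-KI ESC carried a Flag, HA and Twin-Strep tag at the end of the endogenous Tet2, and Tet2dRBD-KI ESC carried the same tag on a Tet2 from which the RNA-binding domain (RBD) was deleted, with 2 libraries in each group. The study describes the replicates of these stem cells and embryoid bodies as independent experiments. For the knock-in comparison it states 3 such experiments, whereas 2 libraries per knock-in group were used here. Knock-in cells were picked clones.

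The lists held 4395 to 7113 peaks for WT ESC, 964 to 4323 for TKO ESC, 498 to 3532 for WT EB, 5781 to 10383 in Tet2-KI ESC and 3318 to 4639 in Tet2dRBD-KI ESC. Replicate 1 of TKO ESC and of WT EB had the shortest lists, with 964 and 498 peaks. The lists hold no read counts, so their depth cannot be given, and where a list has no peak, none passed the threshold of the authors. Lists of the first 3 groups also give the fold enrichment of the immunoprecipitate (IP) over its own input at the summit, a ratio computed by their peak caller, whereas the knock-in lists give positions alone. An mRNA that is less abundant and an mRNA that is less modified cannot be told apart by the presence of a peak. Of the deleted genes, Tet1 held a peak in all 3 TKO ESC lists and Tet2 and Tet3 in none. In WT ESC, Tet1 held one in all 3 lists, Tet2 in 1 and Tet3 in none. Of the marker genes, 5 of 8 pluripotency genes and 2 of 9 differentiation genes held a peak, beside 32.2% of all coding genes. These counts pool the 13 lists of all groups, so they do not compare cell types, and the lists do not measure expression.

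Of the 7 regions in 2 or more libraries, sequences are given for Ythdc1 region 2, Fto region 5, Ythdc1 region 3 and Wtap region 1. They were read from mm9 on the strand of the gene over the 200 bp around the median summit. They are shown because these regions carry most of the comparisons made here, and the third was chosen after its values were seen. Capitals mark the longest run of A and G in the Ythdc1 regions and the longest run of C and T in the Fto and Wtap regions.
Ythdc1 region 2, chr5:87246131-87246330, plus strand, coding exon 4: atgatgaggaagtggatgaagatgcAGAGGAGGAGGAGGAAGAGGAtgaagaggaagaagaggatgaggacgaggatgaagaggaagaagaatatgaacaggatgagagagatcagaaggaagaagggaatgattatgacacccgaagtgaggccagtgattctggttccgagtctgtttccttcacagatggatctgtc
Fto region 5, chr8:94111252-94111451, plus strand, intron 8: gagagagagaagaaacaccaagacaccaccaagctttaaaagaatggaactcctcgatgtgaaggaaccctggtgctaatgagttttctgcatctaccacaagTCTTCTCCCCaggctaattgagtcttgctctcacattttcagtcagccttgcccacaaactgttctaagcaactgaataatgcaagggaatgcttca
Ythdc1 region 3, chr5:87248977-87249176, plus strand, end of intron 4 and start of exon 5: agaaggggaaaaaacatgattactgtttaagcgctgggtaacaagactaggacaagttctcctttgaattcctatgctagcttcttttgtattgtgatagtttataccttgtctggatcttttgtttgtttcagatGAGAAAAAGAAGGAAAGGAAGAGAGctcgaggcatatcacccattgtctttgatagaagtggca
Wtap region 1, chr17:13184641-13184840, minus strand, intron 1: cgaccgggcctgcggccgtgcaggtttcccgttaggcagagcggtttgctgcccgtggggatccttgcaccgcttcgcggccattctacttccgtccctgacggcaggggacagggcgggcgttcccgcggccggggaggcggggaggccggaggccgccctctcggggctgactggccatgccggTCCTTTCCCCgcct

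**Figure D1:**
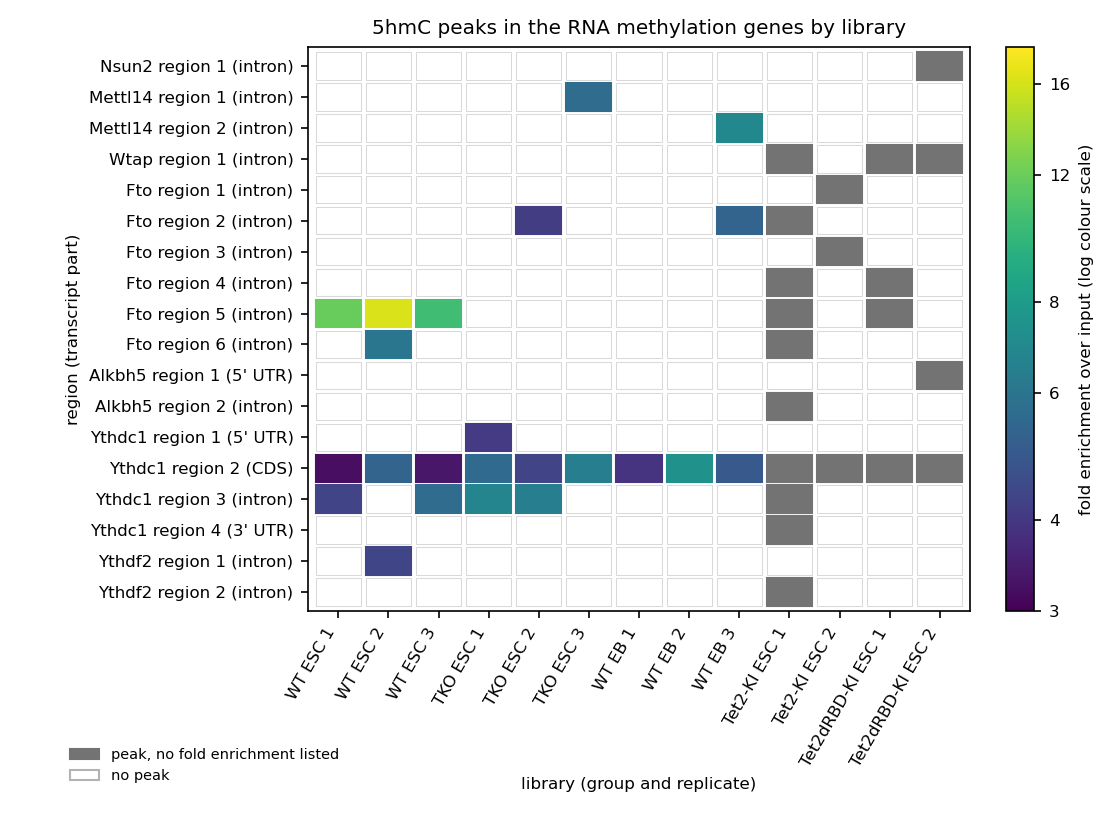
The grid shows the 18 merged regions (vertical axis, with the transcript part of their summits) in the 13 libraries (horizontal axis, by group and replicate). Colour gives the fold enrichment of IP over input on a log colour scale, grey a peak in a knock-in list without that value and white no peak. Ythdc1 region 2 is filled in all 13 columns, Fto region 5 in the 3 WT ESC columns and 2 knock-in columns, and 11 regions in 1 column each.

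Peaks were unevenly spread over the genes. The 23 values of fold enrichment, the highest per region and library, ran from 3.21 to 16.3 with a median of 5.54, and 7 were above the median of their own list. The readers held 23 of the 45 peaks, the erasers 16, the m6A writers 5 and the m5C writers 1. Ythdc1 and Fto together held 35. Of all 22380 coding genes, 7200 (32.2%) held at least 1 peak, and of the 14853 coding genes whose span lay within the range of the 10 genes, 42.3% did. Most regions were seen once: 11 of the 18 were in 1 library, beside 53.6% of all regions, and 9 of the 18 had peaks in knock-in lists only, beside 34.7% of all regions. By the position of their summits, 14 regions were intronic, 2 lay in a 5′ UTR, 1 in coding sequence and 1 in a 3′ UTR. The intronic share was thus 77.8% of the member regions beside 66.6% of the 18820 regions in coding genes, and the coding share 5.56% beside 17.0%. Regions assigned to more than 1 part count in neither of these background shares. Of the 14 intronic regions, 4 had exon bases in their 200 bp interval. With any exon overlap counted as exonic, 10 of the 18 were intronic, and no such count was made over all regions. Counted as peaks the order turned, because Ythdc1 region 2 gave 13 peaks: 28 of the 45 (62.2%) were intronic and 13 (28.9%) coding, beside 67.9% and 23.7% of all peaks in coding genes.

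Ythdc1, the nuclear reader, spans 32.4 kb of chromosome 5 (87233246 to 87265684, plus strand) and was the member with the most peaks, 21 in 4 regions. It had a peak in all 13 libraries, which was so for 78 of all coding genes (0.349%). This rested on region 2, chr5:87246093-87246362, whose summits lay within 70 bp of each other in exon 4, a coding exon of 427 nt. Of all 23367 regions, most of them seen in 1 library, 58 (0.248%) had a peak in all 13 libraries. Among like regions this was more common. All 3 WT ESC libraries held 186 regions with all summits in coding sequence, of which 20 were in all 13 libraries. Of the 186, 20 (10.8%) had no TKO ESC peak and 38 (20.4%) no WT EB peak. Exon 4 encodes an acidic stretch of the protein: of the 66 complete codons in the printed interval (codons 221 to 286), 27 were for glutamate and 13 for aspartate, or 60.6%, beside 21.5% of the 736 codons of the whole coding sequence.

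The fold enrichment of Ythdc1 region 2 was 3.21, 5.30 and 3.35 in WT ESC replicates 1 to 3 (mean 3.95 ± 1.17, SD, n = 3). In TKO ESC it was 5.54, 4.30 and 6.42, with a mean of 5.42 ± 1.07 (SD, n = 3). In WT EB it was 3.94, 7.36 and 4.93, with a mean of 5.41 ± 1.76 (SD, n = 3). The mean was lowest in WT ESC, but the groups overlapped, since WT ESC replicate 2 was above TKO ESC replicate 2 and above both WT EB replicates 1 and 3. The difference in log2 fold enrichment was -0.47 for WT ESC minus TKO ESC (two-sided exact permutation test, p = 0.2, and 0.962 after Benjamini-Hochberg adjustment over the 283 regions present in all 6 libraries). It was -0.44 for WT ESC minus WT EB (exact permutation p = 0.3, adjusted 0.705 over 94 regions). On the linear scale the group means differed by -1.47 and -1.45, more than the SD of WT ESC, but values of both groups overlapped in each comparison and neither test passed 0.05, which 3 libraries against 3 cannot reach, since their smallest p is 0.1. Over all tested regions the median difference was 0.05 for WT ESC minus TKO ESC and 0.30 for WT ESC minus WT EB. The groups did not overlap in 27 of the 283 regions (9.54%, 20 of them higher in WT ESC) and in 18 of the 94 (19.1%, 17 of them higher in WT ESC).

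Ythdc1 region 2 was constant rather than strong. Its mean over the 9 libraries was 4.93 ± 1.39 (SD, n = 9), which ranked 46th of the 58 regions with a peak in every library, whose median was 10.1. Within each of the 9 lists it lay between the percentiles 4.02 and 51.4 of all peaks. Its lowest value in WT ESC exceeded that of 11.9% of the 1532 regions present in all 3 WT ESC libraries.

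**Figure D2:**
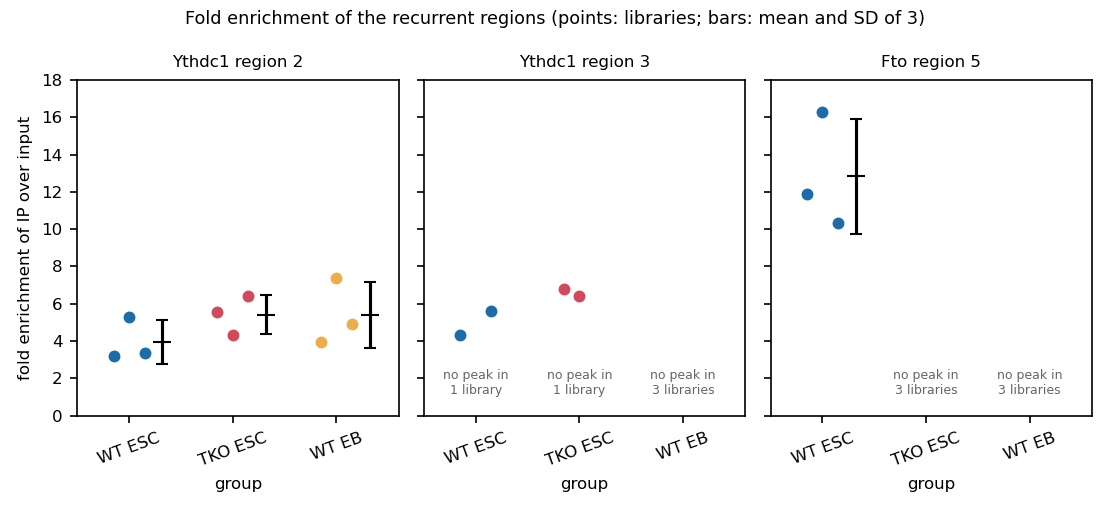
Each panel shows 1 region, with the fold enrichment of IP over input on a linear axis from 0 and the groups WT ESC, TKO ESC and WT EB on the horizontal axis. Points are libraries, in the order of replicates 1 to 3, and bars are the mean and SD where all 3 libraries had a peak. Ythdc1 region 2 overlaps between the groups at 3.21 to 7.36, whereas Fto region 5 has values of 10.4 to 16.3 in WT ESC and no peak in the other 2 groups.

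Region 3 of Ythdc1, chr5:87248965-87249195, sat at the end of intron 4, with its median summit 34 nt from exon 5 and 66 nt of exon inside the printed interval. Its longest purine run, of 25 nt, began at the exon side of the junction. It had a peak in WT ESC replicates 1 and 3 (fold enrichment 4.31 and 5.62), in TKO ESC replicates 1 and 2 (6.76 and 6.43) and in Tet2-KI ESC replicate 1. TKO ESC had the higher 2 values, and with a library missing in each group they were not tested. None of the 3 WT EB lists held it. Of all regions in at least 2 of 3 WT ESC libraries, 67.8% had no WT EB peak. Region 1, in a 5′ UTR (chr5:87233346-87233586), came from a pair of overlapping peaks of TKO ESC replicate 1, at 3.39 and 4.11. Region 4, in the 3′ UTR (chr5:87264877-87265076), came from Tet2-KI ESC replicate 1.

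Ythdf2, the cytoplasmic reader that leads bound mRNA to decay, spans 27.4 kb of chromosome 4 (131740827 to 131768218, minus strand). It held 2 regions of 1 library each, both in intron 4, which is 17184 nt long. Region 1 (chr4:131754514-131754713) was listed in WT ESC replicate 2 at a fold enrichment of 4.34, and region 2 (chr4:131751437-131751636) in Tet2-KI ESC replicate 1. Their summits were 5433 and 8510 nt from the nearest exon.

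**Figure D3:**
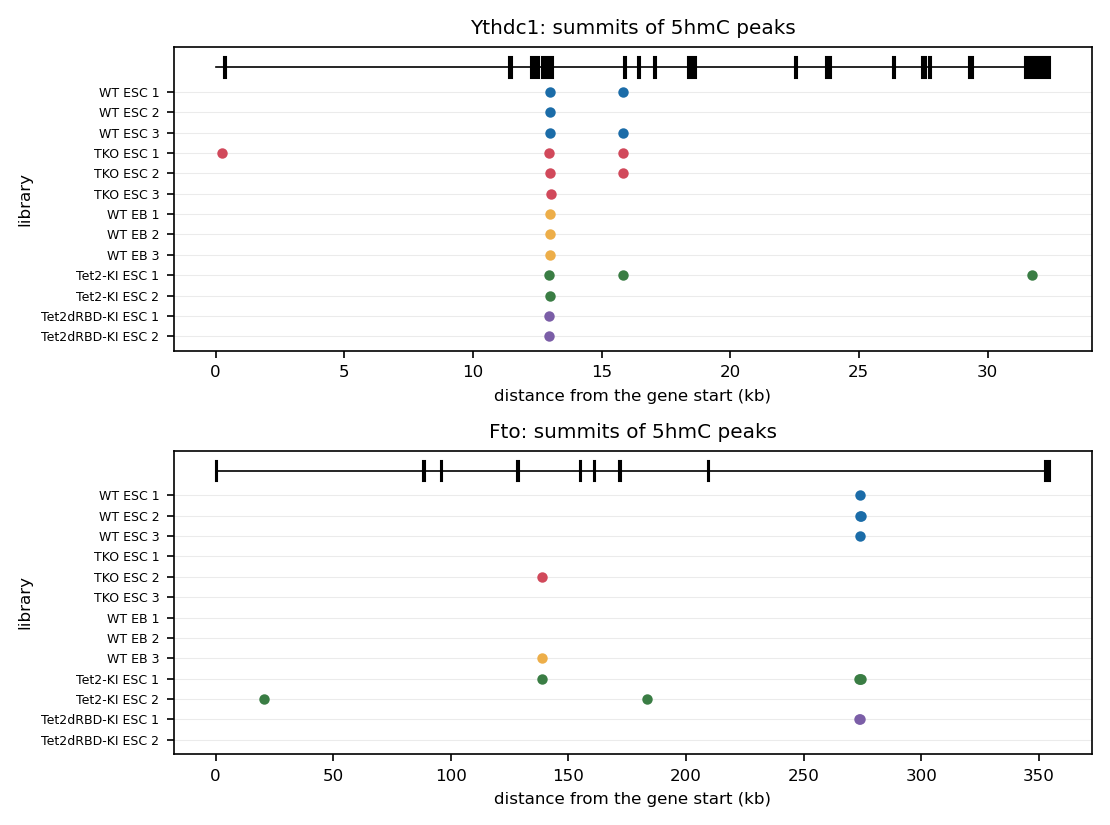
Both maps plot peak summits by library (vertical axis, coloured by group) at their distance from the gene start in kb (horizontal axis). Where a library had several peaks in a region, the summit with the highest fold enrichment is drawn. Black boxes are the exons of the coding transcript with the longest coding sequence, widened where needed to stay visible. In Ythdc1 the 13 libraries line up in exon 4 around 12985 nt, and in Fto the 3 WT ESC libraries line up around 273921 nt, inside the longest intron.

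Fto, an m6A eraser of the same dioxygenase superfamily as the Tet enzymes, is the longest of the genes at 355 kb of chromosome 8 (93837431 to 94192338, plus strand). It held 14 peaks from 8 libraries in 6 regions, all intronic, and 1010 coding genes (4.51%) had peaks in as many libraries or more. Region 5 (chr8:94111233-94111458) had the highest fold enrichment of any region in the 10 genes, 11.9, 16.3 and 10.4 in WT ESC replicates 1 to 3 (mean 12.8 ± 3.07, SD, n = 3). All 3 values lay at or above the percentile 91.3 of their own list, and by its lowest value the region ranked 101st of 1532. No TKO ESC list and no WT EB list held it. It was present in Tet2-KI ESC replicate 1 and Tet2dRBD-KI ESC replicate 1 and absent from replicate 2 of both. Intron 8 is 143385 nt long, and the summits, which fell within 26 bp of each other, were 64557 nt from the nearest exon.

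The presence of Fto region 5 in 3 of 3 WT ESC libraries and in 0 of 3 of either other group was known from these lists when the genes were chosen, so it is given here as a description only. Of the 1532 regions present in all WT ESC libraries, 494 (32.2%) had no TKO ESC peak, 841 (54.9%) no WT EB peak and 406 (26.5%) neither, so the pattern of Fto region 5 was a common one. Among the WT ESC regions with all summits in introns, 213 of 659 (32.3%) had no TKO ESC peak and 401 (60.8%) no WT EB peak. Both comparisons share the WT ESC libraries.

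Fto regions 4, 5 and 6 lay within 978 bp of each other in intron 8 and together took up 9 of the gene's 14 peaks, from 5 libraries. Region 4 (chr8:94110970-94111177) was listed in Tet2-KI ESC replicate 1 and Tet2dRBD-KI ESC replicate 1, the same knock-in libraries as region 5. It ends in a repeat of A and G, and the 55 nt between regions 4 and 5 were 100% purine. Region 6 (chr8:94111710-94111947) was listed in WT ESC replicate 2, at 6.07, and in Tet2-KI ESC replicate 1. Fto region 2 (chr8:93976228-93976502, intron 4) was the region of the gene with a TKO ESC or WT EB peak, at 4.11 in TKO ESC replicate 2 and 5.32 in WT EB replicate 3, and it was also in Tet2-KI ESC replicate 1. No WT ESC list held it. Regions 1 and 3, in introns 1 and 7, were in Tet2-KI ESC replicate 2.

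Alkbh5, the other m6A demethylase, spans 22.1 kb of chromosome 11 (60349883 to 60372014, plus strand). Its 2 peaks were both in knock-in lists. Region 1 (chr11:60351597-60351796), in the 5′ UTR, was listed in Tet2dRBD-KI ESC replicate 2, and region 2 (chr11:60358509-60358708), in intron 1, in Tet2-KI ESC replicate 1.

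Mettl3, the catalytic subunit of the m6A writer, spans 10.5 kb of chromosome 14 (52914343 to 52924803, minus strand) and held no summit in any library. Mettl14, its partner, spans 21.3 kb of chromosome 3 (123067563 to 123088908, minus strand) and held 2 regions of 1 library each. Region 1 (chr3:123088551-123088750) was in TKO ESC replicate 3 at a fold enrichment of 5.60 and region 2 (chr3:123077762-123077961) in WT EB replicate 3 at 6.92. Their summits were in introns 1 and 6, 29 and 58 nt from an exon, and both intervals reached into an exon. Region 1 contains a run of 30 T on the strand of the gene.

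Wtap, the adaptor that holds the m6A writer in nuclear speckles, spans 25.8 kb of chromosome 17 (13159662 to 13185412, minus strand). Its only region (chr17:13184614-13184859) was seen in knock-in lists alone, in both Tet2dRBD-KI ESC libraries and in Tet2-KI ESC replicate 1. The summits lay within 46 bp of each other in intron 1, 202 nt from the nearest exon and 671 nt from the gene start, in sequence that was 73% G and C. None of the other 9 lists held it. Those lists and the knock-in lists differ in the labelled cells and in the columns deposited, and presence in one set and not in the other cannot be told apart from these differences.

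Among the m5C writers, which make the substrate of 5hmC, Nsun2 held 1 peak in Tet2dRBD-KI ESC replicate 2. Nsun2 methylates mRNA and tRNA. The interval (chr13:69751007-69751206) lies at the start of its coding transcripts, 78483 nt into the gene span, which begins with noncoding transcripts. The summit is in the first intron, of 112 nt, of the coding transcript with the longest coding sequence, and 15 nt from the first exon of another coding transcript that begins inside that intron. Over both transcripts 145 of the 200 nt are exonic. The antisense gene Gm17108 covers the same place, and the strand of the reads is not given in the sources used here. Nsun5, a methyltransferase of ribosomal RNA that spans 6.85 kb of chromosome 5 (135845823 to 135852675, plus strand), had no summit. Trdmt1, which spans 35.7 kb of chromosome 2 (13430641 to 13466291, minus strand), had none either. For a gene without a summit, neither its RNA level nor the depth at which it was read is known from these lists.

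The number of member peaks per library was 3, 4 and 3 in WT ESC, with a mean of 3.33 ± 0.577 (SD, n = 3). It was 4, 3 and 2 in TKO ESC, with a mean of 3.00 ± 1.00 (SD, n = 3), and 1, 1 and 3 in WT EB, with a mean of 1.67 ± 1.15 (SD, n = 3). It was 10 and 3 in Tet2-KI ESC, with a mean of 6.50 ± 4.95 (SD, n = 2), and 4 and 4 in Tet2dRBD-KI ESC. WT ESC and TKO ESC overlapped, as did WT ESC and WT EB. Per 1000 peaks of the list the order turned, with 0.569 ± 0.111 for WT ESC, 1.82 ± 2.02 for TKO ESC and 1.13 ± 0.772 for the embryoid bodies (SD, n = 3 each). The list of TKO ESC replicate 1, with 964 peaks, stood at 4.15 per 1000, all 4 of its peaks being in Ythdc1, and without it the TKO ESC mean was 0.654. WT EB replicate 1, with 1 peak in a list of 498, stood at 2.01, and without it the WT EB mean was 0.698.

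Regions present in every library of a group were few. In WT ESC they were Ythdc1 region 2 and Fto region 5, of which 1 (Fto region 5) had no TKO ESC peak and, likewise, no WT EB peak. In TKO ESC and in WT EB the 1 such region was Ythdc1 region 2, so 0 were without a WT ESC peak, where the background was 6 of 346 (1.73%) for TKO ESC and 3 of 115 (2.61%) for WT EB. These 2 shares rest on the short lists of replicate 1: without it they were 18.8% for TKO ESC and 22.2% for WT EB. In Tet2-KI ESC the 1 such region was again Ythdc1 region 2, and 0 had no Tet2dRBD-KI ESC peak beside 35.6% of 2999 regions. In Tet2dRBD-KI ESC there were 2, Ythdc1 region 2 and Wtap region 1, and 0 had no Tet2-KI ESC peak beside 15.8% of 1373. Without 1 knock-in library these backgrounds rose to as much as 69.4% (without Tet2-KI ESC replicate 2) and 49.3% (without Tet2dRBD-KI ESC replicate 1). With 2 libraries against 2 no p below 0.33 can be had. Counts of 1 or 2 regions do not separate the members from the background in any of these comparisons. Tet2-KI ESC replicate 1, the longest list, held 10 of the 13 member peaks of its group.

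The 18 regions were neither uniformly pyrimidine-rich nor uniformly purine-rich. Their share of C and T on the strand of the gene ran from 27.0% to 55.5% with a median of 45.2%, where the 45491 peaks in coding genes of 1 strand had a median of 40.5%, with 5% of them below 25.5% and 5% above 58.5%. Ythdc1 region 2 was the lowest, at 27.0%, with 10.0% C, and 5.59% of the 10886 peaks in coding sequence were lower. Its longest purine run was 21 nt, a length that 8.90% of the peaks in coding genes reached. Fto region 5 had 49.0% C and T, above 80.5% of the intronic peaks, a pyrimidine run of 10 nt, which 17.2% of the peaks reached, and a longer purine run of 15 nt, which 21.5% reached. A tandem repeat of at least 18 nt was found in 2 of the 18 regions, Mettl14 region 1 and Fto region 4, and in 7.51% of the peaks in coding genes.

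**Figure D4:**
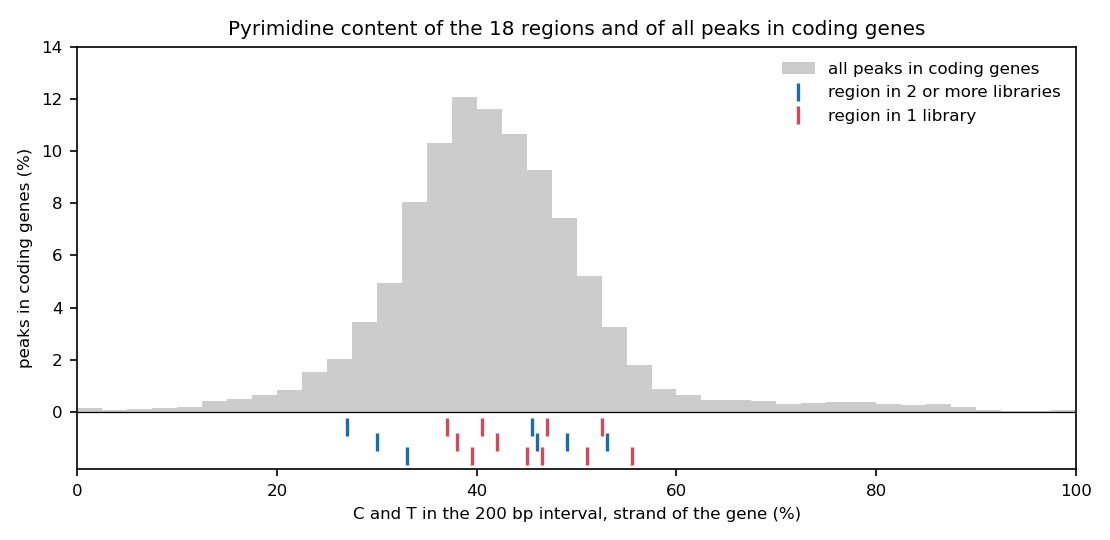
Grey bars give the distribution of the share of C and T (horizontal axis, in % of the 200 bp interval) over all peaks in coding genes (vertical axis, in % of peaks), and ticks under them mark the 18 regions, staggered so that they can be told apart. The ticks run from 27.0% for Ythdc1 region 2 to 55.5% for Ythdf2 region 1, inside the bulk of all peaks.

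A wider list of 41 other RNA modification genes held peaks in 29, beside 32.2% of all coding genes. Genes differ in length and in RNA level, and no test was made. Peaks were found in 6 of 9 further m6A writers, 7 of 8 further m6A readers, 4 of 7 m5C writers and readers, 4 of 7 other Alkbh dioxygenases and 8 of 10 other genes. Of the 29, 3 had a region present in all 3 WT ESC libraries. Zc3h13, a zinc-finger subunit of the m6A writer complex, had a coding region (chr14:75727465-75727785) enriched 4.01 ± 0.895 fold over the 3 WT ESC libraries (SD), at 3.00 ± 0.041 in TKO ESC (SD, n = 3) and at 2.89 in the 1 WT EB library with a peak. Mettl16, which methylates U6 RNA, had an intronic region (chr11:74591165-74591510) at 8.14 ± 2.97 in WT ESC (SD, n = 3), at 17.0 ± 2.80 in the 2 TKO ESC libraries and 10.1 ± 3.73 in the 2 WT EB libraries with a peak (SD, n = 2 each). Hnrnpa2b1, an RNA-binding protein described as an m6A reader, had 3 such regions, and the one at chr6:51415981-51416624 was, like Ythdc1 region 2, in all 13 libraries, at 5.69 ± 0.414 for WT ESC, 6.11 ± 0.816 for TKO ESC and 7.07 ± 2.35 for the embryoid bodies (SD, n = 3 each). These differences were not tested. Of these 5 regions 0 lacked a TKO ESC peak, beside 32.2% of all 1532 regions present in every WT ESC library, and 1, in Hnrnpa2b1 (chr6:51413141-51413617), lacked a WT EB peak, beside 54.9%.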

How the data were processed

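Per the labels and the study's methods, the authors discarded reads of low complexity (AfterQC) and reads from rRNA or tRNA (Bowtie2), clipped adapters (Trimmomatic) and mapped to mm9 with STAR. MACS2 then called peaks per IP library, with the matching input as background (q-value under 0.05), and replicates were not pooled in this step. To compare conditions, the study pooled the mapped reads of their replicates and used ratios of IP over input. Those pooled ratios were not used here. Versions, sequencing depth and read strand are not given in the sources used here. The deposited lists hold intervals of 200 bp around each summit. In 9 lists, column 5 of the deposited file was used as the fold enrichment of IP over input, a ratio. The 13 input libraries entered only through that peak calling, and the knock-in lists carry no such ratio.

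Groups came from the sample titles. Intervals overlapping by at least 1 bp were merged over the 13 lists with Python 3.11.15, pandas 2.3.3 and numpy 2.4.6. A region was replicated when every library of a group had a peak in it. Where a library had several peaks in a region, the highest ratio was used. Transcript parts came from GENCODE M1, where 99.7% of the intervals lay on reference chromosomes, and sequence was read with samtools 1.23.1 and pysam 0.24.0. Coding transcripts decided the part, first coding sequence, then UTR, then intron. Tests were two-sided exact permutation tests over libraries, on log2 ratios, with Benjamini-Hochberg adjustment over all regions tested. The code was tested on simulated lists. Tandem repeats were counted from 18 nt upwards, or 20 nt where the unit had 4 nt, the longest unit searched. The members and lists were chosen with earlier results of these data known, among them those for Fto region 5.

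All 10 genes and every region in them were named, in full where each library of a group had a peak, and sequences were printed for intronic or coding regions present in each library of a group, and for Ythdc1 region 3, which is outside that rule and was added after its values were seen. Of the wider list, values were given for genes with a region in all 3 WT ESC libraries. Virma was found in the annotation as 1110037F02Rik and Alyref as Thoc4. The alternatives were a stricter ratio, an overlap of 100 bp, merging by experiment, presence in 2 of 3 libraries and libraries with description prefix 1703 alone. Further ones were counts per 1000 peaks of the list, other rules for genes and exons, and a linear scale. The last were the mean ratio of the peaks of a library, a replicate block and leaving out each library.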

Additional observations from a re-analysis of the deposited data

How the results depend on the processing

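Over the alternatives, 164 of 209 values stayed within the limits set for them (the spread between replicates for ratios, 1.5 times for counts and shares, the same sign and side of the threshold for tests), 40 moved further and 5 reversed. The log2 ratio of mean member peaks was 0.15 for WT ESC over TKO ESC, 1 for WT ESC over WT EB and 0.70 for Tet2-KI ESC over Tet2dRBD-KI ESC. Per 1000 peaks of the list these became -1.68, -0.996 and -0.48, so the direction depends on scaling to list length. With each library left out they ran from -0.070 (without TKO ESC replicate 3; 0 without WT ESC replicate 2) to 0.42, from 0.74 to 1.74 and from -0.42 (without Tet2-KI ESC replicate 1) to 1.32. With peaks below the median enrichment of each list removed, the first 2 became 2.32 and 2.32. These 2 ratios rest on few peaks: 7 of the 23 values were above the median of their own list. Of the 7, 3 were Fto region 5 in WT ESC, whose pattern was known when the genes were chosen. The regions in every library then numbered 1 for WT ESC, 0 for TKO ESC and 0 for WT EB, because Ythdc1 region 2 lay below the median of most lists.

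With presence in at least 2 of 3 libraries, TKO ESC had 2 such regions and WT ESC had 2 without a WT EB peak, Ythdc1 region 3 being added. Over all regions the shares were then 67.8% for WT ESC without a WT EB peak, 49.7% for WT ESC without a TKO ESC peak, 17.4% for TKO ESC regions and 21.9% for embryoid body regions that had no counterpart in WT ESC. Leaving out 1 library gave 2 to 3 such regions for WT ESC, 1 to 2 for TKO ESC, 1 to 2 in WT ESC without a WT EB peak (2 without WT ESC replicate 2), 3 to 10 in Tet2-KI ESC (10 without its replicate 2), 0 to 6 in Tet2-KI ESC without a Tet2dRBD-KI ESC peak, 4 in Tet2dRBD-KI ESC and 0 to 2 in Tet2dRBD-KI ESC without a Tet2-KI ESC peak. In a knock-in group, leaving out 1 library leaves 1, so a region then needs 1 peak. The number of WT ESC regions without a TKO ESC peak was 1 under every alternative tried, of 1 to 3 in all, while the share over all regions ran from 31.4% to 49.7%.

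The replicate block gave p = 0.5 for Ythdc1 region 2 in WT ESC minus TKO ESC (-0.47) and p = 0.25 in WT ESC minus WT EB (-0.44), by exact sign changes of 3 pairs, whose smallest p is 0.25. The numbers were not taken as pairs, since not every correlation was over 0.1: over 68 regions, the deviations of libraries numbered 1, 2 and 3 correlated at 0.36, 0.19 and -0.09 between WT ESC and TKO ESC, at 0.35, 0.25 and -0.01 between WT ESC and WT EB, and at 0.45, 0.28 and 0.05 between TKO ESC and WT EB. Replicate 1 of WT ESC and of TKO ESC share the prefix 1608. In 11 of 18 comparisons of a library with those of another group the highest correlation was with its own number. Leaving out 1 library, these differences ran from -0.71 to -0.34 and from -0.67 to -0.19. Among libraries with prefix 1703 the differences were -0.32 and -0.51, and 19.8% of the TKO ESC regions and 23.6% of the WT EB regions had no counterpart in WT ESC. Leaving out 1 library gave 2.59% to 18.8% and 3.31% to 22.2% for these shares, 40.1% to 69.4% for Tet2-KI ESC regions without a Tet2dRBD-KI ESC peak and 26.4% to 49.3% for the reverse. The depth of the libraries is unknown and limits every statement on absent peaks.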
